A study of Mus musculus with 6 samples.

Results

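Genes that move chloride across cell membranes were followed in cultured mouse retinas that lacked the Spalt transcription factor Sall3, and in wild-type retinas. The genes are Bsnd, which encodes barttin, the chloride channels or exchangers Clcn2 and Clcn3, the cation chloride cotransporters Slc12a2 and Slc12a5, and the calcium-activated chloride channels Ano1 and Ano2. They were selected by gene symbol, which gave 9 transcript clusters (groups of probes along the exons of a transcript) of 7 genes, out of 22608 clusters with 1 gene symbol and 100843 in all. All 9 clusters passed the filter on dim signals. The set was formed around Bsnd because of its difference between the genotypes, so the differences of the 7 genes are described here without a test.

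Each genotype was represented by 3 arrays, and each array by the pooled RNA of 3 retinas. All retinas came from C57BL/6 mice of mixed sex at postnatal day 0 and were cultured flat on floating filters for 7 days in medium with 10% serum. The knockout samples are labelled Sall3 knockout, with no allele given, and the control samples wild-type. It is not said whether the pools of a genotype came from separate litters, so errors and p-values cover the spread between these samples. Explants hold many cell types, and fewer cells of a type cannot be told apart from less RNA per cell.

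Chloride sets the sign of fast inhibition. The sodium potassium chloride cotransporter NKCC1 (Slc12a2) loads cells with chloride and the potassium chloride cotransporter KCC2 (Slc12a5) extrudes it, and their balance decides whether GABA and glycine depolarise or hyperpolarise a neuron, a balance that shifts as the retina matures. Barttin is a small membrane protein without a pore of its own. It acts as an accessory subunit of chloride channels in kidney tubule and inner ear cells, and in humans its loss causes salt wasting with deafness. In mice, loss of ClC-2 (Clcn2) or ClC-3 (Clcn3) leads to degeneration of photoreceptors.

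The arrays were not equally close to each other. Correlations between arrays of the same genotype were 0.965 to 0.982 and those between genotypes 0.957 to 0.978. Knockout 1 had the lowest mean correlation with the others, 0.964, and wild-type 3 had 0.969; the remaining arrays had 0.971 to 0.975. Sall3 itself had a log2 signal of 6.24, 6.05 and 6.13 in knockout 1, 2 and 3, against 6.21, 6.36 and 6.33 in wild-type 1, 2 and 3. After normalization the groups overlapped, and the difference of -0.16 (SE 0.10) did not pass (limma adjusted p = 0.877). As deposited, the highest knockout value of 6.20 lay just below the lowest wild-type value of 6.21, with a difference of -0.14. Since it is not known whether the probes lie in the deleted part, the value does not check the labels. The tissue label could be checked against rod genes. The 4 of 5 rod markers measured (Nrl, Gnat1, Pde6b and Sag) lay between the 90.8th and the 99.6th percentile of gene brightness, though brightness also depends on the probes.

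Barttin was the member that differed most. The log2 signal of Bsnd (transcript cluster 6924235) was 7.03, 6.66 and 6.69 in knockout 1, 2 and 3, against 8.70, 8.88 and 8.36 in wild-type 1, 2 and 3. Every knockout array lay below every wild-type array, with a gap of 1.32 between the highest knockout and the lowest wild-type value. Knockout explants had a mean of 6.79 ± 0.21 and wild-type explants one of 8.64 ± 0.26 (SD, n = 3), a difference of -1.85 (SE 0.18, 95% interval -2.30 to -1.41), so that the knockout signal was 27.7% of the wild-type signal (20.3% to 37.7%). Among 17468 genes it was the fifth largest difference in either direction. As deposited, before normalization, the difference was -1.81, and the groups did not overlap there either. It was -1.97 without knockout 1 and -1.997 without wild-type 3.

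Bsnd also varied more within a genotype than most genes. Its SD among the wild-type arrays, 0.26, lay at the 92.1st percentile of all genes, whose median was 0.083. The knockout SD of 0.21 lay at the 84.4th percentile. Many genes hold repeated deposited values, described below, which may lower their SDs. Over all kept clusters, named or not, the median residual SD was 0.247. For Bsnd, wild-type 3 was lowest among wild-type arrays and knockout 1 was highest among knockout arrays. These same arrays stood somewhat apart over all genes. How much of the remaining knockout signal is background is not known, since no detection call was given, and a fold measured over background understates the fold in RNA.

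**Figure D1:**
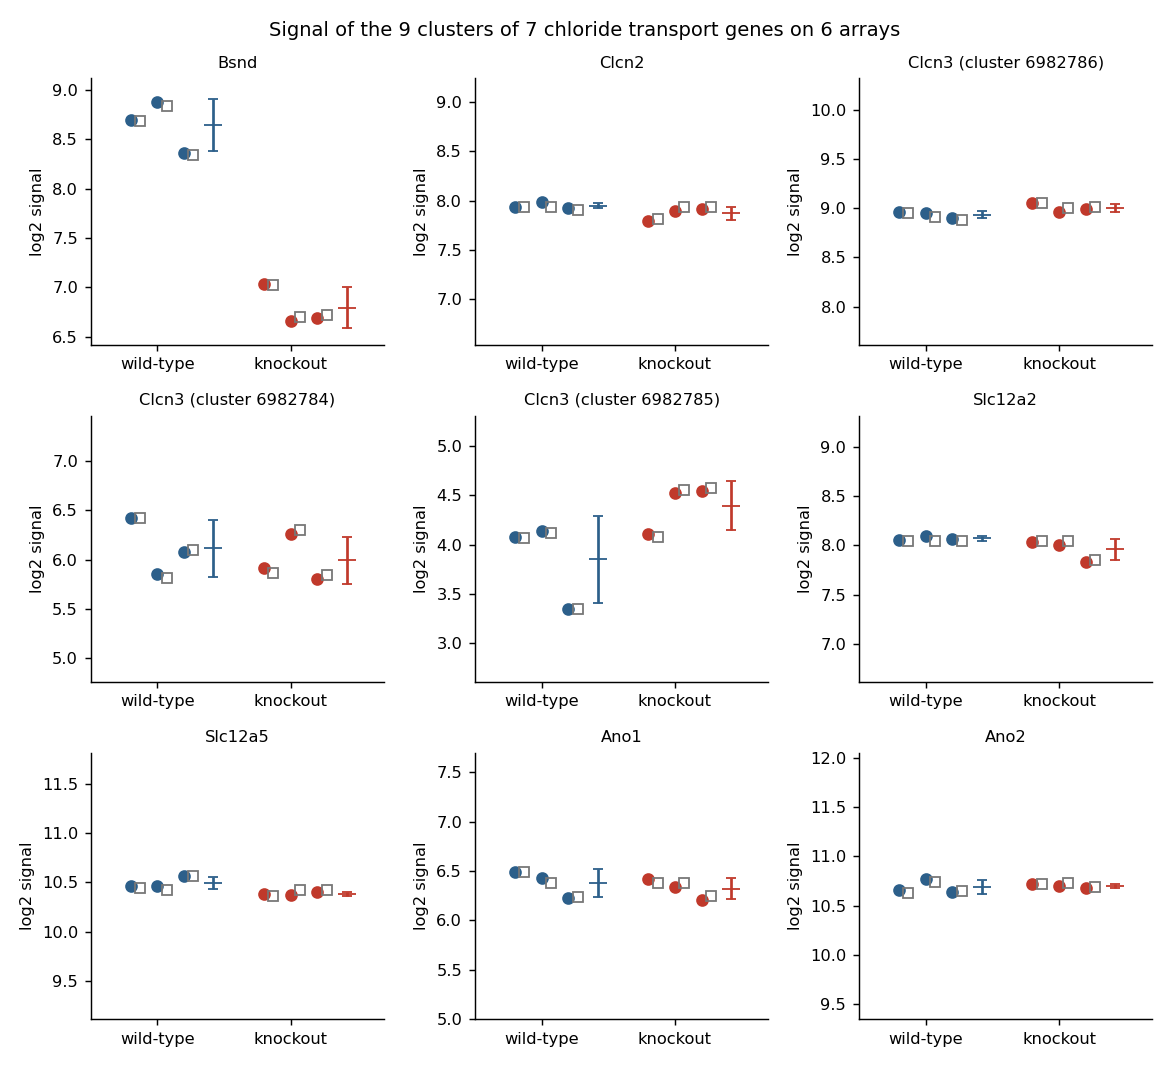
Log2 signal (y axis) of the 9 transcript clusters in wild-type and knockout explants; filled circles are quantile normalized values of replicates 1 to 3 from left to right, open squares the values as deposited, and the bar beside them the mean with its SD (n = 3). Every panel spans the same log2 range, and the Bsnd groups lie apart, with all knockout arrays at or below 7.03 and all wild-type arrays at or above 8.36.

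The 6 other genes stayed close to 0. Their differences ranged from -0.11 to 0.07 with a median of -0.07, against a median of -0.01 over all genes. Their 95% intervals lay within -0.36 and 0.28. Of all 7 genes, 5 had groups that did not overlap after normalization, where 12.9% of all genes did; as deposited 2 of them, Bsnd and Clcn3, had such groups, against 8.35% of all genes. Since the set was formed with this contrast known, nothing is read from these counts.

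The values of several members repeat exactly in the deposited table. For 54.6% of the clusters with 1 gene symbol at least 2 arrays held the identical value, and 4 of the 9 clusters here did so, those of Clcn2, Slc12a2, Slc12a5 and Ano1. Normalization turned these equal values into slightly different ones. The deposited values are therefore given for these genes, and their SDs may understate the error of the measurement.

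The chloride loader NKCC1 gave the same reading on nearly all arrays. As deposited, the log2 signal of Slc12a2 (cluster 6861200) was 8.05 on all 3 wild-type arrays and on knockout 1 and 2, and 7.85 on knockout 3. One array thus carried the whole deposited difference of -0.07. After normalization knockout explants had a mean of 7.96 ± 0.11 and wild-type explants one of 8.07 ± 0.02 (SD, n = 3), a difference of -0.11 (95% interval -0.36 to 0.13). That interval spans a knockout signal from 78.1% to 110% of wild-type. Without knockout 3 the normalized difference was -0.05.

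The chloride extruder KCC2 also differed little. Slc12a5 (cluster 6883127) had deposited log2 signals of 10.36, 10.42 and 10.42 in knockout 1, 2 and 3, against 10.44, 10.42 and 10.57 in wild-type 1, 2 and 3. Knockout 3 and wild-type 2 held the same value and knockout 2 lay just above it, so the deposited groups overlapped slightly. The normalized difference was -0.11 (SE 0.09, 95% interval -0.33 to 0.11). The ratio of both cotransporter signals was also compared between the genotypes. A constant difference in probe brightness cancels in its change, but background does not, and it describes RNA signal rather than transport. The log2 signal of Slc12a5 minus that of Slc12a2 was 2.43 ± 0.12 in knockout and 2.42 ± 0.07 in wild-type explants (SD, n = 3). The groups overlapped, and the difference between both means was 0.00.

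ClC-2, an inwardly rectifying channel of the plasma membrane, was nearly level. Clcn2 (cluster 6844480) had a deposited log2 signal of 7.93 on knockout 2 and 3 and on wild-type 1 and 2, with 7.81 on knockout 1 and 7.91 on wild-type 3. Both groups therefore held the same top value. The difference was -0.03 as deposited and -0.08 after normalization (SE 0.09, 95% interval -0.30 to 0.14). Without knockout 1 the normalized difference was -0.04.

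ClC-3, a chloride proton exchanger of endosomes and synaptic vesicles, was the only member with 3 clusters, and they did not move alike. On the brightest (cluster 6982786) the normalized log2 signal was 9.05, 8.96 and 8.99 in knockout 1, 2 and 3, against 8.96, 8.95 and 8.90 in wild-type 1, 2 and 3. All knockout values were higher, but by a gap of only 0.01, and the difference was 0.07 (95% interval -0.15 to 0.28), or 0.11 as deposited. Without knockout 1 it was 0.04 and without wild-type 3 0.05. The middle cluster (6982784) stood at -0.12 (SE 0.20), with values of 5.80 to 6.26 in knockout and 5.85 to 6.42 in wild-type explants. The dimmest cluster (6982785) stood at 0.54 (SE 0.25, 95% interval -0.08 to 1.17). Its wild-type values were 4.07, 4.13 and 3.34 against 4.11, 4.53 and 4.55 in knockout explants, so wild-type 3 was far below the others and the groups overlapped. The mean over the 3 clusters gave 0.16 for the gene.

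The anoctamins are chloride channels opened by intracellular calcium, and ANO2 is known from photoreceptor terminals of the mouse. Ano1 (cluster 6972473) had deposited log2 signals of 6.38, 6.38 and 6.24 in knockout 1, 2 and 3, against 6.49, 6.38 and 6.24 in wild-type 1, 2 and 3. Only wild-type 1 stood above the shared range, and the normalized difference was -0.06 (SE 0.12, 95% interval -0.35 to 0.23). It rested on single arrays, with -0.14 without wild-type 3, -0.11 without knockout 1, -0.04 without wild-type 2, -0.0038 without knockout 3 and -0.0044 without wild-type 1. Ano2 (cluster 6949885) had normalized log2 signals of 10.72, 10.70 and 10.68 in knockout 1, 2 and 3, against 10.66, 10.77 and 10.64 in wild-type 1, 2 and 3. The knockout values lay inside the wild-type range, and the difference was 0.01 (SE 0.09, 95% interval -0.22 to 0.23). In knockout explants the Ano2 signal thus stood at 101% of wild-type, with an interval from 86.1% to 118%. The sign of so small a value turned without knockout 1, wild-type 1 or wild-type 3, and with array weights.

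**Figure D2:**
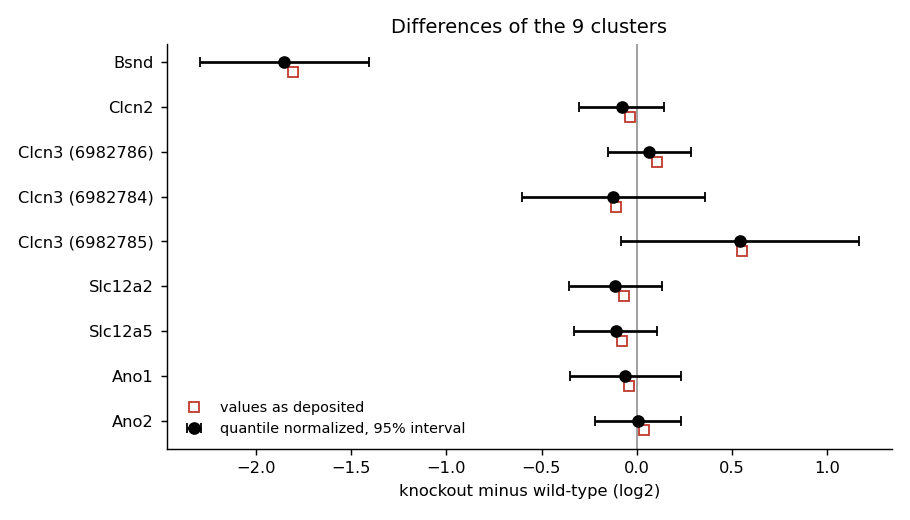
Knockout minus wild-type difference in log2 signal (x axis) for each of the 9 clusters; black circles with bars are quantile normalized values with the 95% interval of the limma model, and red open squares are values as deposited. Bsnd, around which the set was formed, stands at -1.85 and the other clusters between -0.12 and 0.54; the widest interval, -0.08 to 1.17, belongs to the dimmest Clcn3 cluster.

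Other genes of chloride transport were taken from 9 lists with 63 genes. Of these, 51 were measured, 3 fell below the level filter, 3 lay only on clusters with several symbols and 6 had no named cluster used here. None of the 51 passed in either direction in limma after adjustment over all clusters (smallest adjusted p = 0.711). The same was true of all 75632 clusters, of which 0% were called higher and 0% lower (smallest adjusted p = 0.539). An unadjusted p under 0.05 was reached by 2511 clusters that were higher and 2458 that were lower. At that unadjusted threshold 1 of the 51 genes remained, against 1.6% of all genes. Their median difference was -0.03. After normalization 32 were lower and 19 higher; as deposited 27 were lower, 23 higher and 1 equal, with a median of -0.01. The direction of such small values depended on the scaling, as 54.7% of all genes were lower after normalization and 42.5% as deposited.

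The 5 other ClC genes measured and Ostm1, the partner subunit of ClC-7, all had values above 0, on the brightest cluster of each, under each of the 3 scalings, and none passed. Their median was 0.06 after quantile normalization and 0.09 both as deposited and with median centring. Clcn5, an exchanger of endosomes, stood at 0.19 (SE 0.13), and its groups overlapped. Ostm1 stood at 0.07, Clcn4, the closest relative of Clcn3, at 0.06, and Clcn7, the lysosomal exchanger, at 0.05. Potassium channels that work beside barttin in kidney or inner ear epithelia did not pass either. Kcnj10, which in the retina is the main potassium channel of Müller glia, stood at -0.18 (SE 0.12), Kcne1 at -0.13 (SE 0.12), Kcnj16 at -0.05 and Kcnj1 at 0.04.

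Among the other cotransporters of the SLC12 family, 5 were measured and none passed. Their differences ranged from -0.07 to -0.02. Slc12a9 stood at -0.07, the potassium chloride cotransporter Slc12a4 at -0.03, and Slc12a8 and the sodium chloride cotransporter Slc12a3 at -0.03 each. Slc12a4 had a value just above 0, 0.01, as deposited and with median centring. The kinases that switch NKCC1 on and KCC2 off by phosphorylation gave no call. Wnk2 stood at -0.13 (SE 0.09), with log2 signals of 8.01, 8.03 and 8.02 in knockout 1, 2 and 3, against 8.09, 8.13 and 8.23 in wild-type 1, 2 and 3. Its groups were separate both after normalization and as deposited, but it did not pass (limma adjusted p = 0.894). Stk39, the kinase SPAK, stood at -0.05, its relative Oxsr1 at 0.03 and Wnk3 at 0.02. Wnk1 and Wnk4 lay only on clusters with several symbols and were not analysed here.

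Of the 7 other anoctamins measured, 5 were above and 2 below 0, and none passed. Ano4 stood at 0.26 (SE 0.19), with 7.83 in knockout 1 above the 7.04 to 7.34 of all the other arrays. Ano8 stood at -0.10, Ano9 at -0.07 and Ano10 at 0.10. Among 12 other anion channels, none of which passed, Cftr, the channel mutated in human cystic fibrosis, had the largest value at 0.44 (SE 0.25). Its log2 signals were 5.94, 5.51 and 5.22 in knockout 1, 2 and 3, against 5.42, 5.19 and 4.74 in wild-type 1, 2 and 3, so the groups overlapped. Lrrc8b, a subunit of the volume-regulated anion channel, stood at -0.11, and the Tweety genes Ttyh2 and Ttyh3 at -0.10 and -0.07.

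The 1 related gene at the unadjusted threshold was Slc4a3, which encodes an exchanger of chloride for bicarbonate. Its log2 signal was 8.49, 8.55 and 8.51 in knockout 1, 2 and 3, against 8.75, 8.85 and 8.73 in wild-type 1, 2 and 3. The knockout signals were all under the lowest wild-type signal, also as deposited. The difference of -0.26 (SE 0.09) did not pass after adjustment (limma adjusted p = 0.711). Its unadjusted p was 0.028, and no related gene reached the unadjusted threshold after median centring or without knockout 2, knockout 3, wild-type 1 or wild-type 2. The other exchangers measured included Slc26a7 at 0.19 (SE 0.15), Slc4a1 at -0.07 and Slc26a9 at -0.04. Of the sodium pump, whose ion gradients drive the cotransporters, 3 subunits were measured: Atp1b1 stood at -0.11, Atp1b2 at -0.09 and Atp1b3 at -0.01. Hepacam and Mlc1, which form a complex with ClC-2 in glia, stood at -0.06 and 0.03.

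**Figure D3:**
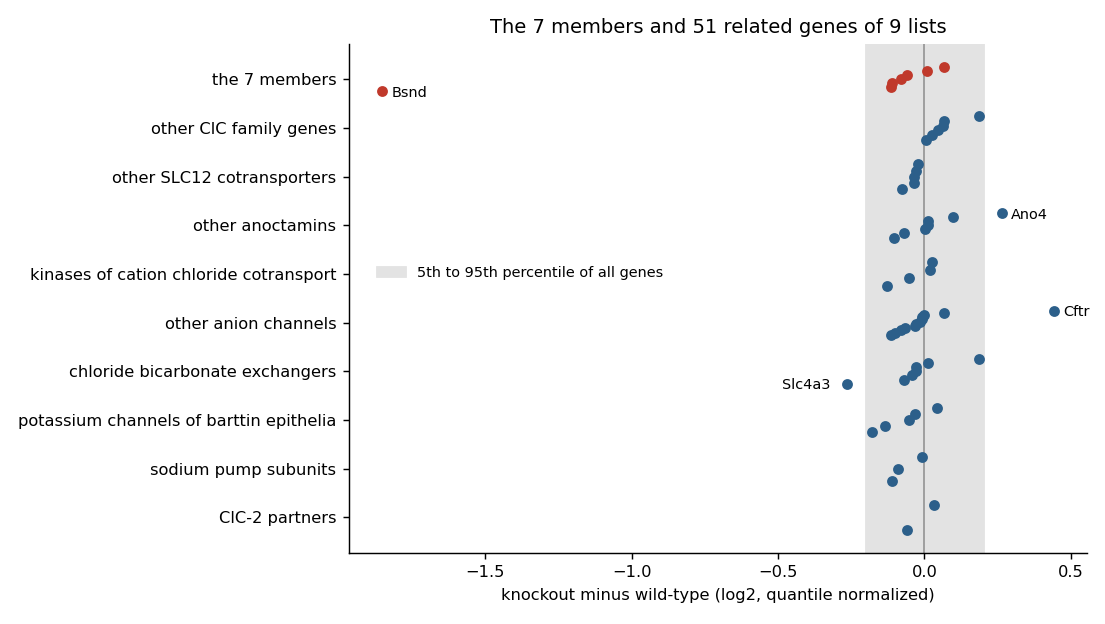
Knockout minus wild-type difference in log2 signal (x axis) of the 7 members (red) and of the 51 measured genes of 9 related lists (blue), 1 point per gene; the grey band holds the differences from the 5th to the 95th percentile of all genes, -0.20 to 0.20. Bsnd lies far outside the band, while 3 related genes, Slc4a3, Ano4 and Cftr, lie beyond its edges.

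The difference between Bsnd and the other members was examined by looking for genes with the profile of Bsnd. Likeness was the mean absolute difference over the 6 arrays after each gene's wild-type mean had been subtracted, and the median over all genes was 1.01. A gene that is level on all 6 arrays would lie about as far from Bsnd as that median. The nearest gene was Angpt2, a ligand of the endothelial receptor Tie2, at 0.24. It was followed by Wfdc10, a gene with a whey acidic protein domain, at 0.32, the proprotein convertase Pcsk6 at 0.33, and the transcription factors Egr1 at 0.36 and Npas4 at 0.38, which neurons switch on after stimulation. In all 5 the knockout arrays lay below the wild-type arrays, with differences of -1.42 in Angpt2, -1.90 in Wfdc10, -1.24 in Pcsk6, -2.07 in Egr1 and -1.83 in Npas4. This follows from how they were picked, since likeness was taken over the knockout arrays too. None of these 5 passed after adjustment (limma adjusted p = 0.539 to 0.601).

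These 5 genes split by how they varied among the wild-type arrays. Relative to their own wild-type mean, Bsnd stood at 0.05, 0.23 and -0.29 in wild-type 1, 2 and 3, Angpt2 at 0.10, 0.18 and -0.29, and Pcsk6 at 0.05, 0.16 and -0.22. All 3 were lowest in wild-type 3 and highest in wild-type 2. Egr1 and Npas4 had the opposite extreme, at 0.47 and 0.66 in wild-type 3, where Bsnd was lowest. Wfdc10 had the wild-type order of Bsnd too, but with a wider spread, at -0.48, 1.02 and -0.54 in wild-type 1, 2 and 3. Angpt2 and Pcsk6 shared with Bsnd the order of all 6 arrays, with knockout 2 lowest, then knockout 3, knockout 1, wild-type 3, wild-type 1 and wild-type 2. After normalization 86 of the 17467 other genes had this order, and as deposited 14 had it, Angpt2 and Pcsk6 among them in both cases. None of the 6 other members and none of the 51 related genes had it. Over all genes the share was only 0.49% after normalization and 0.08% as deposited, so nothing is read from that. Angpt2 and Pcsk6 were picked for likeness on these same arrays, so their shared order is not independent of that choice.

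**Figure D4:**
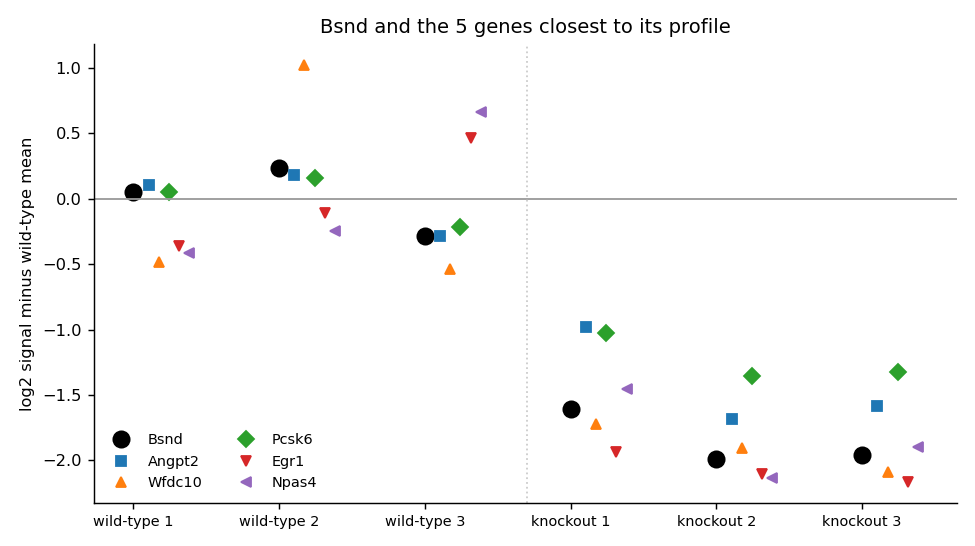
Log2 signal minus the gene's own wild-type mean (y axis) on each of the 6 arrays (x axis) for Bsnd (black circles) and the 5 genes closest to its profile, slightly offset for legibility. Angpt2, Pcsk6 and, with a wider spread, Wfdc10 follow the order of Bsnd within the wild-type arrays, whereas Egr1 and Npas4 are highest in wild-type 3.

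The summed signals of 2 retinal cell type lists were, like Bsnd, lower on every knockout array than on any wild-type array. None of the markers of these 2 lists, nor of the ganglion cell and microglia lists, passed (smallest limma adjusted p = 0.539). The 5 cone markers summed (on the linear scale) to 591 to 733 in knockout and 1389 to 2576 in wild-type arrays. The short-wave opsin Opn1sw stood at -2.35, the cone phosphodiesterase Pde6c at -1.08 and the cone arrestin Arr3 at -0.51, each with separate groups, while Opn1mw at -0.24 and Gnat2 at -0.18 had overlapping groups. Without Opn1sw the sums were 443 to 514 in knockout and 719 to 912 in wild-type arrays. The 6 horizontal cell markers summed to 4986 to 5411 in knockout and 5790 to 6103 in wild-type arrays. Between 65.7% and 71.3% of that sum came from Prox1, which stood at -0.13, and the sums without it were 1431 to 1676 and 1758 to 2085. The transcription factors Lhx1 and Onecut1 stood at -0.77 and -0.64 and Septin4 at -0.13, each with separate groups, and those of Prox1 were separate too. Onecut2 at -0.05 and Calb1 at -0.19 had overlapping groups, and Onecut2 had no lower value as deposited. Over all genes, 12.9% had separate groups after normalization. In both lists the sums were also separate with the values as deposited. All 5 ganglion cell markers (median -0.07) and all 5 microglia markers (median -0.19) were lower as well, also as deposited, but their sums overlapped. The part of these cell types in the Bsnd difference was not tested. The rod, bipolar, amacrine, Müller glia, endothelium and lens lists had overlapping sums too.

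Tissues that could carry barttin or chloride transport genes into the samples were also examined. Of the kidney tubule markers, Umod, Slc12a3 and Aqp2 were measured, with differences of -0.03, -0.03 and -0.11 and overlapping groups for each, while Slc12a1 fell below the level filter. The summed kidney signal was 212 to 216 in knockout and 217 to 231 in wild-type arrays, and overlapped as deposited. The 3 pigment epithelium markers measured summed to 109 to 115 in knockout and 117 to 121 in wild-type, and the 2 erythroid markers, one of which is Slc4a1, to 91.2 to 94.2 and 94.9 to 98.7; both overlapped as deposited. For the 4 fibroblast markers measured the sums overlapped after normalization (216 to 227 and 224 to 233) and were separate as deposited (221 to 222 and 224 to 227). The share of these lists in the Bsnd difference was not tested.

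The neighbours of Bsnd on its chromosome were read for a change that extends along the region. On one side the next gene is Gm30487, which had no named cluster used here. On the other side is Tmem61, a gene of little known function with 2 clusters. The brighter of these had log2 signals of 5.21, 5.40 and 5.43 in knockout 1, 2 and 3, against 5.46, 5.48 and 5.71 in wild-type 1, 2 and 3. The groups were separate by 0.03 but overlapped as deposited, and the difference of -0.20 (SE 0.12) did not pass (limma adjusted p = 0.864). The dimmer cluster stood at -0.10 (SE 0.10; limma adjusted p = 0.933), and its groups also overlapped as deposited. Further along on that side, Lexm, looked up after its values were seen, stood at -0.05 (SE 0.11) with overlapping groups (limma adjusted p = 0.974).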

How the data were processed

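RNA pools of retinal explants, each of 3 retinas, with 3 pools from Sall3 knockout and 3 from wild-type mice, were measured on Affymetrix mouse exon arrays. The deposited table holds 1 value per transcript cluster on each array. The deposited values were taken to be log2 signals from their range of 1.48 to 13.86. Per the submitters' processing notes, Affymetrix Expression Console, PLIER and build mm8 were used, in roles and versions that are not stated; the step that normalized arrays against each other is not given in the sources used here. Their column medians lay between 4.97 and 5.07.

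Values were quantile normalized, and clusters with a mean at or above the 25th percentile (a log2 signal of 3.70) were kept, 75632 of 100843. Genes were named from the platform annotation, through gene identifiers and a RefSeq table of assembly GRCm38, for 22608 clusters with 1 symbol (22101 symbols updated, 507 as annotated); a gene was represented by its brightest kept cluster, giving 17468 genes. Knockout and wild-type were compared with limma 3.58.1 in R 4.3.3 (lmFit and eBayes, two-sided), adjusted by Benjamini-Hochberg over all kept clusters with a threshold of 0.05; intervals are 95%. The comparison was also run on simulated data. These were independent normal values without the exact repeats of the deposited ones, so that run does not cover such repeats. The 6 arrays leave 4 residual degrees of freedom, and this number limits the precision. Same-numbered samples were not treated as pairs. The alternatives tried were deposited values, median centring, other level filters, array weights, a replicate block, other variance models, a threshold of 0.1, 1 row per gene, a gene's mean over its clusters, and each array left out.

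The members and lists were chosen with earlier results of these data known. The genes named were all members, Sall3, up to 4 genes of each list of related genes with the smallest p, the genes next to Bsnd in the RefSeq order and the 5 genes nearest to the profile of Bsnd. Plots were made in matplotlib 3.10.9 (Python 3.11.15). Some items are not reported here.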

Additional observations from a re-analysis of the deposited data

How the results depend on the processing

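The Bsnd difference stayed below 0 in all 14 alternatives, between -1.9999 (array weights) and -1.73 (without wild-type 2), and moved in none of them by more than its spread between replicates; with each array left out it ranged from -1.997 to -1.73. No cluster and no related gene passed in any of 16 alternatives; the smallest adjusted p over all clusters was 0.0808, without wild-type 3, and 0.145 with 1 row per gene. The median of the related genes lay between -0.05 and -0.01. Of the other members, Ano2 changed sign with array weights (-0.02) and without knockout 1, wild-type 1 or wild-type 3 (0.00, -0.01 and -0.02); Clcn3 moved from 0.07 to 0.11 as deposited and with median centring, and to 0.16 as the mean of its clusters. With the sample number as a replicate block the Bsnd difference was -1.85 as before and 0 clusters passed; deviations of same-numbered samples correlated at 0.13, -0.15 and 0.21, so the numbers were not taken as pairs. With 1 row per gene the intervals narrowed, for Slc12a2 to 82.8% to 103% of wild-type and for Slc12a5 to 85.2% to 101%. Among all genes with groups that did not overlap, 1962 were lower and 297 higher after quantile normalization, 655 and 803 as deposited, and 935 and 426 after median centring. The cause was not tested. The number of arrays and the unknown background limit what can be seen at dim clusters.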

Other observations

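Exact repeats in the deposited values were far more common in named than in other clusters. At least 2 arrays shared a value in 54.6% of the clusters with 1 gene symbol (12347 of 22608), against 5.39% of all the other clusters, and in 245 named clusters all 6 arrays held a single value. The residual SD was also smaller in genes, with a median of 0.0992 against 0.247 over all kept clusters.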
